A study of Mus musculus with 3 samples.

Results

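The nuclei described here are hindbrain-type nuclei of the mouse brain with a high level of Pard3b. They number 316 of the 9027 barcodes that passed the limits on quality, out of 17517 barcodes in all. A barcode passed with at least 1000 detected genes and at most 5% of its UMIs (unique molecular identifiers, each standing for 1 captured RNA molecule) from mitochondrial genes. A member had at least 200 CPM (the UMIs of a gene per 1000000 UMIs of the barcode) and at least 2 UMIs of Pard3b. It also had at least 100 CPM of Meis1 and Meis2 together, under 300 CPM of Tox, under 150 CPM of Ttc6, Chst9 and Rreb1 together, and under 600 CPM of Chrm2. Levels measured in these libraries thus chose the members, and the 8 genes of the rule are given below as a description with no test. The same holds for Sema5a, Lhfpl2, Lhx3 and Nrp2, the genes that came with the label.

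The study profiled nuclei of neurons in the brain of uninjured C57BL/6 mice that carried a label transported back from the lumbar spinal cord. Labelled tissue was cut out of sagittal brain slices under fluorescence, frozen and homogenised, and nuclei were sorted and run on the 10x Genomics platform. There are 3 libraries, labelled as biological replicates 1 to 3 of this single group, so the design holds no treatment and all comparisons are between kinds of nuclei within the libraries. The sources used here state neither the number, age and sex of the animals behind each library nor the tracer. Libraries held 27435221, 74287112 and 60490064 UMIs, and 2679, 2769 and 3579 barcodes passed. The libraries shared 20 barcode sequences, 6 of them among passing barcodes and 0 among members. Scrublet marked 0.821%, 1.30% and 1.45% of the passing barcodes as likely doublets, 2 of them members, and the calls below were also computed without them.

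Pard3b encodes a relative of Pard3, a scaffold of the PAR complex that sets cell polarity and helps build tight junctions. Reticulospinal neurons of the hindbrain send axons to the spinal cord and carry commands for posture and locomotion. One class among them, the V2a neurons, is excitatory and arises from ventral progenitors, and factors found in the class include Lhx3, Lhx4, Sox14 and Shox2. Sema5a is a transmembrane guidance cue with thrombospondin repeats, Nrp2 is a receptor for class 3 semaphorins, and Lhfpl2 is a tetraspan membrane protein. Lhx3 is a LIM homeobox factor that V2a neurons share with motor neurons.

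The members were 106, 69 and 141 nuclei in replicates 1, 2 and 3. They made up 3.96% (exact 95% interval 3.25 to 4.77), 2.49% (1.94 to 3.14) and 3.94% (3.33 to 4.63) of the passing barcodes, a mean of 3.46% ± 0.841 (SD, n = 3). The interval of replicate 2 lay below those of the other libraries. These intervals cover counting error only, and dissection and sorting can set the shares. The nuclei used for comparison were the 2718 other passing barcodes with at least 200 CPM of Meis1 and Meis2 together and under 300 CPM of Tox (939, 748 and 1031 per library), called the other hindbrain nuclei below. Members made up 10.1%, 8.45% and 12.03% of members and other hindbrain nuclei combined. The median member held 6839, 13488 and 9548 UMIs, and the median other hindbrain nucleus held 7102, 15049.5 and 10892. Members were therefore somewhat shallower in each library. As a gauge of free RNA, 1287 cortical nuclei (320, 422 and 545) with at least 300 CPM of Tox and under 100 CPM of Meis1 and Meis2 together were measured in the same way.

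Of 416 passing barcodes at the Pard3b limit, the other limits removed 100. Those on Meis1 and Meis2, on Tox, on Ttc6, Chst9 and Rreb1, and on Chrm2 removed 35, 23, 11 and 31 barcodes in that order. Among members the median Pard3b level per nucleus was 539, 410 and 450 CPM, with the lowest at 200.4, 208 and 215 CPM and the highest at 2737, 1372 and 2413 CPM. For 65 members the level rests on only 2 UMIs. A further 40 nuclei passed all the other limits with 200 CPM or more from a single UMI and were not members. With 15 exceptions at 100 to 200 CPM, members also passed the stricter Meis1 and Meis2 limit of the other hindbrain nuclei.

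Summed over the members of a library, Pard3b stood at 655, 491 and 550 CPM, against 28.2, 20.4 and 23.2 CPM in the other hindbrain nuclei and a mean of 3.54 CPM in cortical nuclei. The limit itself sets this gap. Sema5a stood at 650, 537 and 644 CPM in members and at 171 ± 25.4 CPM (mean ± SD, n = 3, as below) in the other hindbrain nuclei. Nrp2 stood at 131, 157 and 192 CPM in members against 60.4 ± 5.78 CPM. All 3 member libraries lay above all 3 libraries of the other hindbrain nuclei for each of these genes. Lhfpl2 varied more, with 65.3, 123 and 120.0 CPM in members against 17.5 ± 2.23 CPM. Lhx3 was even across libraries at 53.0, 56.8 and 51.1 CPM, against 15.3 ± 0.928 CPM. In cortical nuclei the means of Sema5a, Nrp2, Lhfpl2 and Lhx3 were 7.03, 1.89, 4.15 and 0.633 CPM. The rule did not use these label genes, but they came with the label of these same nuclei. Their high levels in members are therefore a description and not separate support for the rule. In the genome (mm10) Pard3b spans chr1:61638824-62642284 on the plus strand, a stretch of 1003461 bases. Antisense genes (Pard3bos1, Pard3bos2, Pard3bos3 and Gm29084) overlap it, and since the use of strand in counting is not given, their reads cannot be told apart from those of Pard3b and they are not reported as results.

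**Figure D1:**
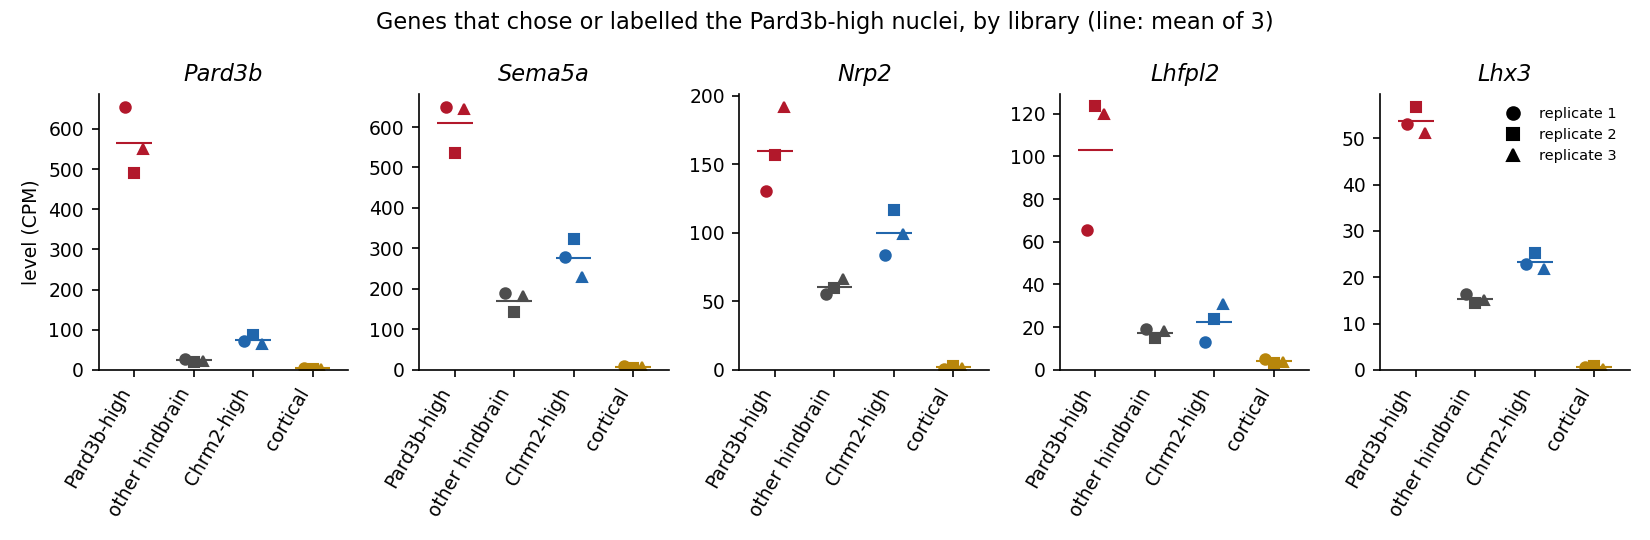
Level in CPM of Pard3b, which chose the nuclei, and of Sema5a, Nrp2, Lhfpl2 and Lhx3, which came with the label, in 4 kinds of nuclei, with 1 point per library and a line at the mean of 3 libraries. Every Pard3b-high point lies above every point of the other kinds, and cortical nuclei lie near 0.

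Genes of neurons in general were high in members: Rbfox3, Snap25, Syt1, Rbfox1, Map2 and Nrg1 summed to 7146 ± 475 CPM, against 8781 ± 426 CPM in the other hindbrain nuclei. Of genes that define other brain cells, some had no UMI in members and some were measured at low to moderate levels. Pdgfra and Olig2 of oligodendrocyte precursors, Aqp4 and Gja1 of astrocytes and C1qa of microglia were at 0 UMIs. The far larger sum of the other hindbrain nuclei held only 20, 3, 11, 12 and 3 UMIs of them. Their 0 in members therefore lies at the limit of counting. Cspg4 of oligodendrocyte precursors averaged 1.85 ± 2.66 CPM in members and 0.523 ± 0.244 CPM in the other hindbrain nuclei. The oligodendrocyte list summed to between 44.4 and 49.0 CPM in members, 34.3 and 43.1 CPM in the other hindbrain nuclei, and 58.2 and 74.2 CPM in cortical nuclei. The microglia list, with C1qa at 0, summed to between 60.4 and 94.5 CPM in members and 55.0 and 86.1 CPM in the other hindbrain nuclei. Its gene P2ry12 averaged 54.1 CPM in members and 53.5 CPM in the other hindbrain nuclei, and Cx3cr1 16.9 and 13.9 CPM. The astrocyte list summed to between 16.6 and 27.4 CPM in members, most of it Slc1a2 (19.3 CPM), against 25.8 to 28.2 CPM in the other hindbrain nuclei. The list of oligodendrocyte precursors summed to between 0.638 and 4.90 CPM in members and 1.29 and 2.61 CPM in the other hindbrain nuclei. The vascular list summed to between 9.80 and 28.3 CPM in members and 11.8 and 18.8 CPM in the other hindbrain nuclei, and its gene Flt1 was higher in members in every library, with means of 6.01 ± 1.27 and 1.66 ± 0.681 CPM, and met the call (edgeR adjusted p = 0.0200). The part of these lists in the calls below was not tested. Slc6a2 and Phox2a of noradrenergic neurons, Slc18a3 of cholinergic neurons and Pou4f1 of the red nucleus were also at 0 in members. The other hindbrain nuclei held 160, 22, 3 and 46 UMIs of them, so the 0 of Slc18a3 says little. Th and Dbh of noradrenergic neurons averaged 2.04 and 0.539 CPM in members against 4.70 and 3.02 CPM. Chat of cholinergic neurons averaged 1.15 against 0.348 CPM, and the cholinergic list summed to 1.36 ± 0.971 CPM against 1.27 ± 0.0892 CPM. Tph2, the enzyme of serotonin synthesis, had 17 UMIs in members, 16 of them in 1 nucleus of replicate 3. The list of corticospinal genes summed to between 38.3 and 86.2 CPM in members and 84.1 and 135 CPM in the other hindbrain nuclei. In cortical nuclei it summed to between 458 and 526 CPM. Its gene Slc17a7 had a UMI in 16.5% of members, 24.0% of the other hindbrain nuclei and 75.6% of cortical nuclei. The part that any cortical-type nuclei among the other hindbrain nuclei have in the calls below was not tested.

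Among nuclei that pass the other limits of the rule, the levels of several genes followed the level of Pard3b both below and above the limit. This is a description, since bins of Pard3b in shallow nuclei rest on 1 or 2 UMIs. Arsj, Lypd6 and Reln were picked as genes called higher in members, so their higher levels inside the limit were largely set by that choice. Sema5a averaged 121.5 CPM in the 2270 nuclei without a Pard3b UMI, 227 CPM in the 172 nuclei under 100 CPM of Pard3b and 330.1 CPM in the 168 nuclei just outside the limit, at 100 to 200 CPM. It averaged 490.2 CPM in the 119 members just inside, at 200 to 400 CPM, 677 CPM in the 134 members at 400 to 800 CPM, and 647 CPM in the 63 members at 800 CPM or more. Lhx3 went from 30.8 CPM just outside to 39.0 CPM just inside the limit and 94.4 CPM in the highest bin. The highest bin holds only 4 nuclei in replicate 2. Arsj, which encodes an arylsulfatase, averaged 1.62 CPM in nuclei without a Pard3b UMI, 15.8 CPM just outside the limit, 25.4 CPM just inside it and 72.8 CPM in the highest bin. Lypd6, a membrane-anchored protein of the Ly6 family that acts on nicotinic receptors, averaged 9.92, 48.7, 126 and 191 CPM in the same bins. Reln, the secreted glycoprotein reelin, averaged 153, 439, 627 and 971 CPM. The nuclei just outside the limit thus lay between the nuclei without Pard3b and the members for these genes. Slc17a6, the vesicular glutamate transporter of hindbrain neurons, averaged 85.6 CPM without Pard3b, 111 CPM just outside and 110.5 CPM just inside. It averaged 122 CPM at 400 to 800 CPM of Pard3b and 93.4 ± 51.3 CPM in the highest bin. Pard3, the relative of Pard3b, averaged 147 CPM without Pard3b, 170.3 CPM just outside and 159.6 CPM just inside. In the 40 nuclei with a single Pard3b UMI, of which 1 library holds 2, Pard3 averaged 73.2 ± 76.6 CPM.

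**Figure D2:**
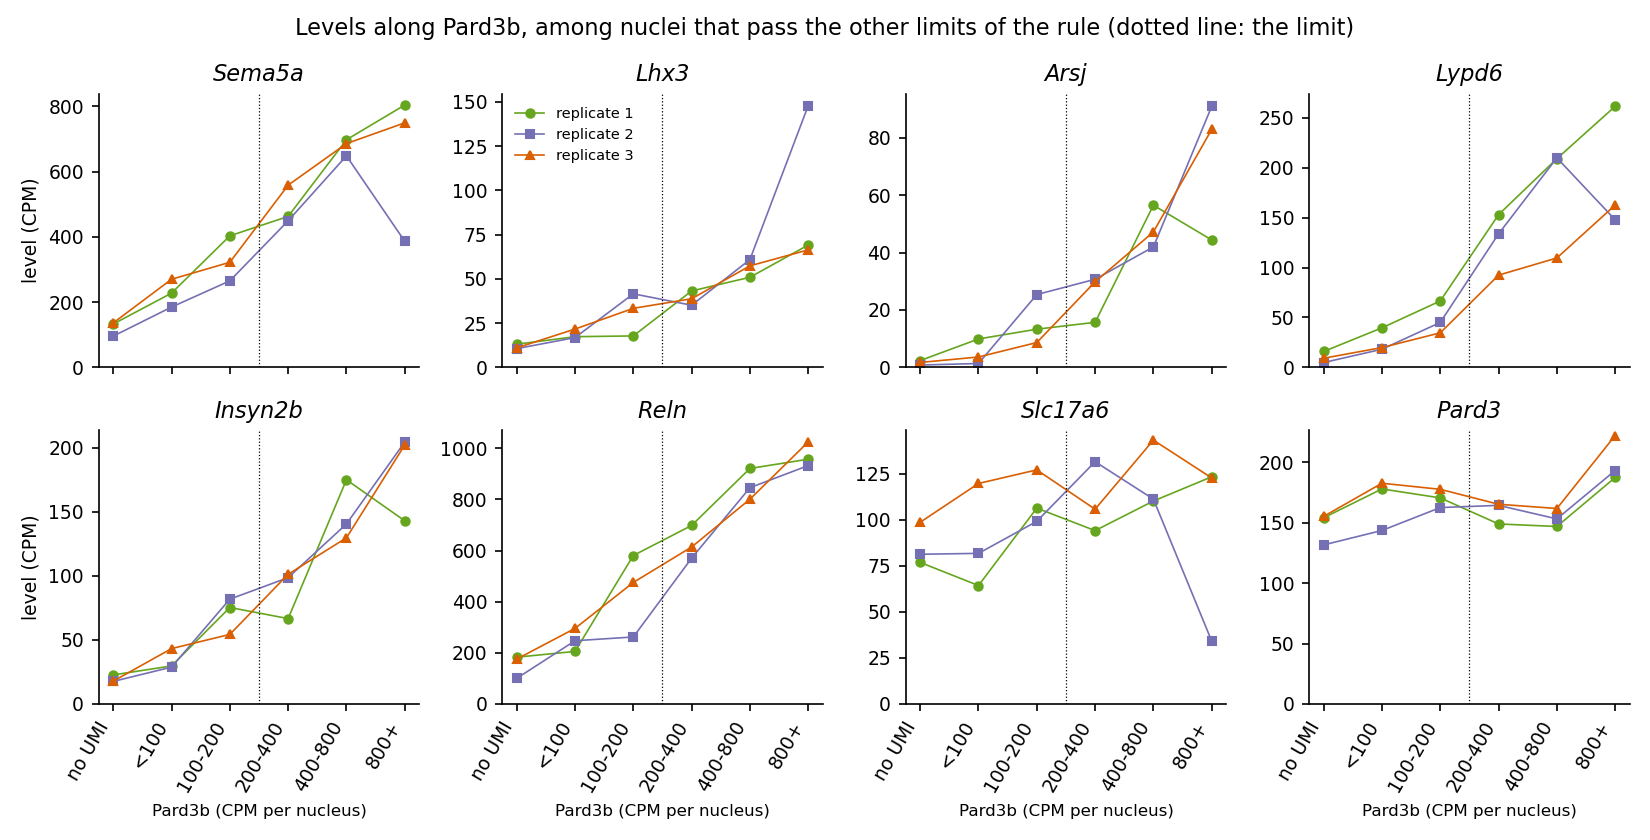
Level in CPM of 8 genes (vertical axes from 0) in nuclei grouped by their own Pard3b level in CPM, with 1 line per library and a dotted line at the limit of the rule. Sema5a, Lhx3, Arsj, Lypd6, Insyn2b and Reln are higher in members than in nuclei without Pard3b and take intermediate values just outside the limit, while Pard3 lies between 147 and 201 CPM on average in the 6 bins drawn. The 40 nuclei at 200 CPM or more from a single UMI are not drawn.

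For the tests, UMIs were summed over the nuclei of a kind in each library, which gave 811694, 1020662 and 1566222 UMIs for members and 7665997, 13340973 and 12397347 UMIs for the other hindbrain nuclei. A gene was called when its adjusted p in the edgeR quasi-likelihood test was under 0.05 and its log2 fold change was at least 1 in size. Of 15049 genes tested, 145 were called higher in members (0.964%) and 294 lower (1.95%). Genes of the rule, of the label or overlapping Pard3b account for 7 of the former and 2 of the latter. The median log2 fold change of all genes tested was 0.00. The libraries are described as biological replicates. With the library as a block, p-values measure how the difference between members and comparison nuclei varies from library to library, and not the spread of levels between libraries. Called genes were long: the median span on the genome was 62038 bases for those higher and 91571 bases for those lower, against 26972 bases for all tested genes, and the part of gene length in these calls was not tested.

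Arsj stood at 40.7, 41.1 and 46.6 CPM in members and at 5.09, 2.70 and 3.23 CPM in the other hindbrain nuclei (log2 fold change 3.56, SE 0.24, adjusted p = 2.65e-09). Lypd6 stood at 205, 170.5 and 112 CPM against 27.5, 11.99 and 14.3 CPM (3.18, SE 0.14, adjusted p = 7.51e-12). Crp, known in liver as the gene of C-reactive protein, stood at 71.5, 53.9 and 46.0 CPM against 15.0, 5.70 and 7.66 CPM (2.62, SE 0.20). Groups did not overlap for any of these genes, and replicate 1 was the highest library for Lypd6 and Crp in both groups. Gfra1, the receptor that binds GDNF and signals through Ret, stood at 143, 98.0 and 87.5 CPM against 26.2, 23.8 and 25.8 CPM (2.02, SE 0.13, adjusted p = 1.51e-09). Reln stood at 859.9, 729.9 and 764 CPM against 253, 155 and 235 CPM (1.85, SE 0.08, adjusted p = 7.51e-12). Insyn2b, which encodes a protein of inhibitory synapses, was nearly constant across members at 133, 127 and 132 CPM, against 33.5, 26.2 and 27.4 CPM (2.14, SE 0.11). Dock2, an exchange factor for Rac known from immune cells, was called too, at 46.8, 87.2 and 104 CPM against 18.9 ± 2.95 CPM (2.05, SE 0.16). Insyn2b (chr11:34314822-34422640, plus strand) lies within Dock2 (chr11:34226815-34783892, minus strand), so the reads of this pair cannot be told apart without strand.

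Further genes called higher were Col8a1 (1.81), a collagen chain, Greb1 (1.79), Syt6 (1.74), a synaptotagmin, Tshz1 (1.73), a zinc finger factor, and C1ql2 (1.73), a secreted C1q-like protein of synapses, all given as log2 fold changes. Tshz1 was even across member libraries, at 112, 128 and 119 CPM against 34.8 ± 6.58 CPM. Col8a1 was not, at 64.1, 89.2 and 37.0 CPM against 16.7 ± 2.74 CPM. Rasef, a Rab-type GTPase, was called at 3.06 (SE 0.47, adjusted p = 0.000156) but rests on few nuclei. Its member libraries stood at 22.2, 124 and 16.6 CPM, and 85 of the 127 UMIs of replicate 2 came from 1 nucleus. Without that nucleus replicate 2 stood at 41.5 CPM, and only 30 of 316 members had any Rasef UMI. The log2 fold change was 1.57 without replicate 2 and 3.87 without replicate 3, and DESeq2 gave 2.68 with an adjusted p of 0.144.

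Htr7, a serotonin receptor that couples to cyclic AMP, stood at 4.93, 6.86 and 3.19 CPM in members and at 50.5, 45.7 and 52.3 CPM in the other hindbrain nuclei (log2 fold change -3.44, SE 0.24, adjusted p = 3.61e-09). Gpc5, a glypican that binds growth factors at the cell surface, stood at 115, 114 and 128 CPM against 772, 854 and 955 CPM (-2.91, SE 0.08, adjusted p = 7.02e-15). Gpc6, another glypican, stood at 185, 138 and 186 CPM against 954, 899 and 1020.0 CPM (-2.55, SE 0.08). All member libraries lay far below all libraries of the other hindbrain nuclei for each. Tafa2, a secreted chemokine-like protein, stood at 44.4, 34.3 and 34.5 CPM against 319, 263 and 279 CPM (-2.99, SE 0.11, adjusted p = 2.18e-13). Erbb4, a receptor for neuregulins, stood at 55.4, 46.0 and 60.02 CPM against 324, 411 and 403 CPM (-2.87, SE 0.11, adjusted p = 4.77e-13). Col25a1, a transmembrane collagen, averaged 10.3 ± 3.81 CPM against 79.5 ± 10.8 CPM (-3.04). Lower calls were also made for Gpr149 (-2.97), an orphan receptor, Spx (-2.78), the peptide spexin, Prdm6 (-2.65), Trhde (-2.58), the ectoenzyme that degrades thyrotropin-releasing hormone, and Dach1 (-2.54). For Prdm6 the size of the change depends on replicate 3, which holds 7.02 CPM against 1.23 and 0.980 CPM in the other member libraries. Its call held without that library, at a log2 fold change of -4.48. Slc44a4 met the call at -2.91, but its groups overlapped, with 8.62, 1.96 and 0.638 CPM in members against 73.6, 5.17 and 6.45 CPM. A single nucleus gave 37.9% of the Slc44a4 UMIs of the other hindbrain nuclei, and the call ended without the library as a block (adjusted p = 0.499).

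**Figure D3:**
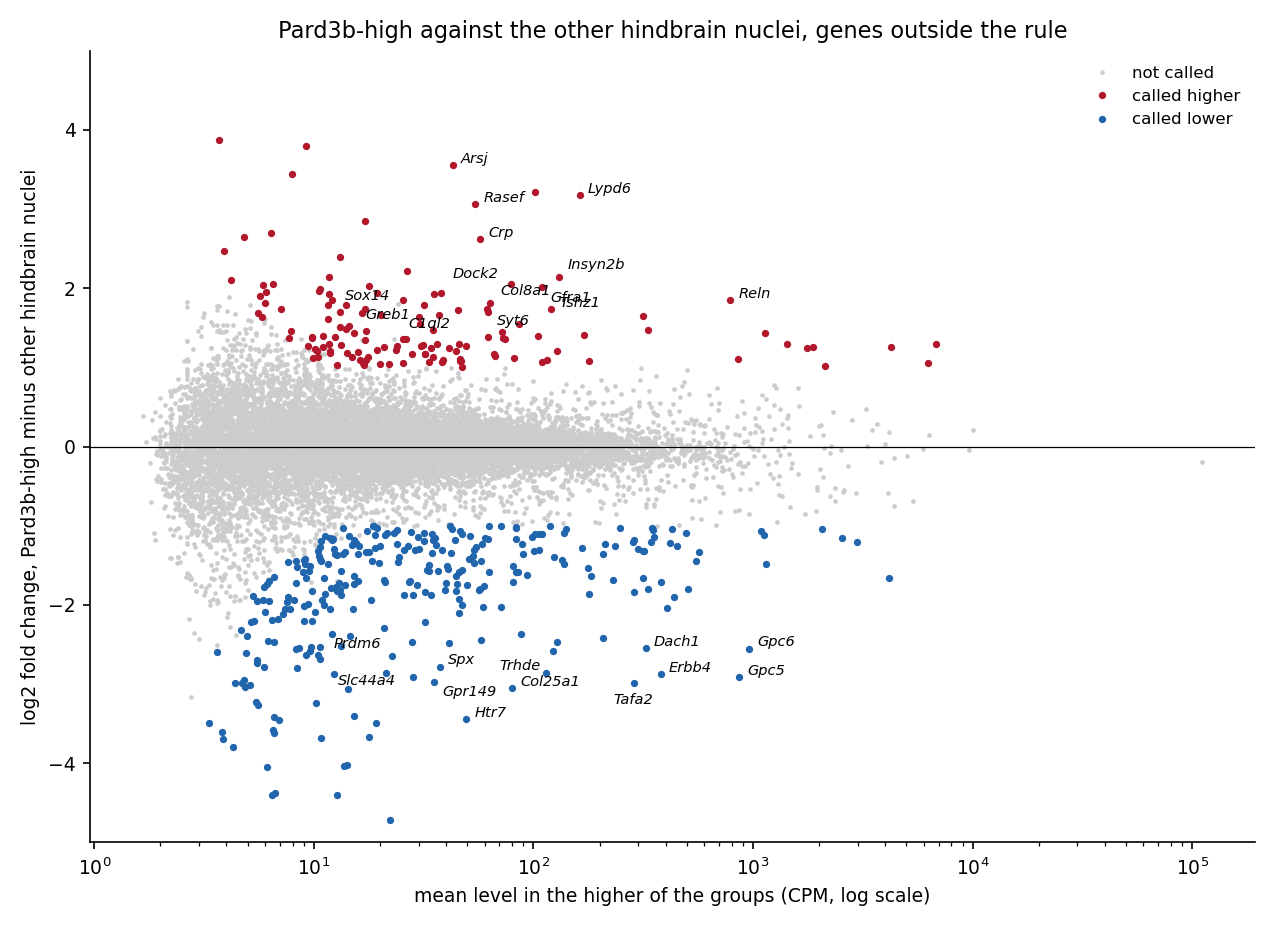
Log2 fold change of members minus the other hindbrain nuclei against the mean level in the higher of the groups (CPM, log scale), 1 point per tested gene outside the rule, with called genes in colour and named genes labelled. Arsj, Lypd6 and Rasef stand above 3 and Htr7 and Col25a1 below -3 among labelled genes, and 1 gene called lower lies outside the axis.

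Of the V2a factors outside the label, Sox14 and Lhx4 were called higher in members than in the other hindbrain nuclei. Sox14 stood at 17.2, 29.4 and 30.01 CPM in members against 4.44, 9.82 and 6.61 CPM (log2 fold change 1.85, SE 0.23, adjusted p = 1.47e-05). Lhx4, the close relative of Lhx3, stood at 45.6, 39.2 and 57.5 CPM against 21.1, 22.0 and 25.6 CPM (1.00, SE 0.15, adjusted p = 0.000113). Groups did not overlap for either gene, but the size of the change in Lhx4 lies at the limit for a call. Lhx4 was at 0.97 without replicate 1 and 0.90 without replicate 3. Shox2 was not called, at 28.6 ± 9.40 CPM against 18.1 ± 3.78 CPM (0.62, adjusted p = 0.0411), and its groups overlapped.

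Nuclei with a UMI of at least 1 of the factors Lhx3, Lhx4, Sox14 and Shox2 were 224 of the 316 members, or 70.9% (exact 95% interval 65.5 to 75.8). The share was 55.7%, 81.2% and 77.3% by library, against 30.2%, 42.0% and 40.6% in the other hindbrain nuclei and 5.83% in cortical nuclei pooled. Lhx3 belongs to the label, so this share is partly fixed by it, and it is given without a test. At a fixed 5000 UMIs per nucleus the share was 48.7% ± 8.53 in members, 25.0% ± 2.13 in the other hindbrain nuclei and 1.71% in cortical nuclei. Thinning left out 22, 2 and 7 members with fewer UMIs. UMIs of 2 or more of these factors occurred in 38.3% of members, 14.9% of the other hindbrain nuclei and 0.233% of cortical nuclei. Sox14 alone had a UMI in 21.5% of members, 6.59% of the other hindbrain nuclei and 0.233% of cortical nuclei.

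Members carried the glutamate marker Slc17a6 at 108, 114 and 123 CPM, against 91.7, 88.9 and 112 CPM in the other hindbrain nuclei (0.19, SE 0.09, adjusted p = 0.304), with overlapping groups. A UMI of it was found in 63.3% of members, 54.9% of the other hindbrain nuclei and 11.2% of cortical nuclei. A UMI of any GABA or glycine marker (Gad1, Gad2, Slc32a1, Slc6a5) was found in 11 of 316 members, or 3.48% (1.75 to 6.14), against 7.06% of the other hindbrain nuclei and 4.12% of cortical nuclei. At 5000 UMIs it was 1.19%, 0% and 4.48% in members and 1.53%, 1.64% and 1.14% in cortical nuclei. The members' libraries thus lay on both sides of the cortical shares used as a gauge of free RNA, with replicate 3 above them. The thinned shares rest on 84, 67 and 134 members, few of them with such a UMI, and the difference was not tested.

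**Figure D4:**
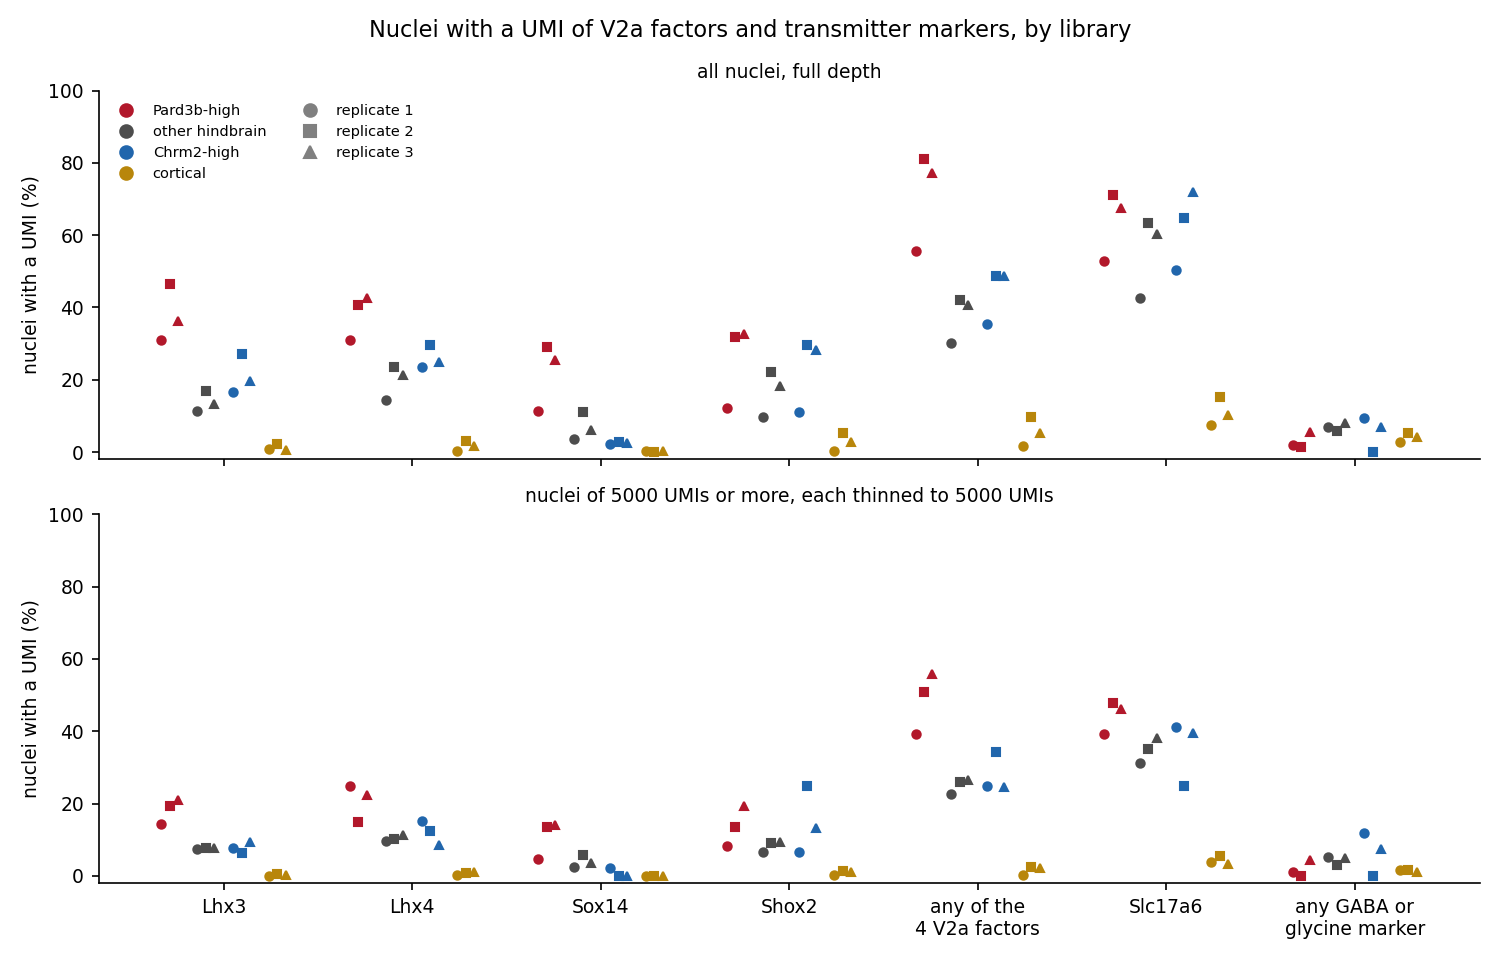
Percent of nuclei with a UMI of each of 4 V2a factors, of any of the 4, of Slc17a6 and of any GABA or glycine marker, by library, at full depth (upper panel) and at 5000 UMIs per nucleus (lower panel). In both panels the members' share with any V2a factor lies above that of the other kinds in every library, while their share with a GABA or glycine marker is under 6% in every library.

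Of 17 tested factors of hindbrain and spinal interneuron classes, 2 were called higher and 3 lower, with a median log2 fold change of -0.25 against 0.00 for all genes. For this list and each list below, the shares over all tested genes were 0.964% called higher and 1.95% called lower. The higher ones were Sox14 and Zfhx3, a large homeobox factor (852 ± 60.4 CPM against 387 ± 73.2 CPM, 1.11). Nfia and Nfib, factors of the NFI family that mark late-born neurons, were lower. Nfia stood at 51.1 ± 4.86 CPM against 135 ± 17.6 CPM (-1.44). Nfib stood at 108, 41.1 and 40.9 CPM against 136, 140.3 and 79.4 CPM (-1.005), with overlapping groups, and it was at -0.66 without replicate 2. Maf stood at 4.00 CPM against 10.7 CPM (-1.42), a call that ended without replicate 2 (adjusted p = 0.160). Of 10 LIM homeobox factors and partners tested, Lhx4 was called higher and Lhx9 lower. Lhx9, a factor of dorsal interneurons, rests on 4 UMIs in members (1.25 CPM against 6.58 CPM, -2.47). Its call ended without replicate 2 (-1.57, adjusted p = 0.212), and its value was -3.22 without replicate 1.

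Other genes of the semaphorin system, to which Sema5a and Nrp2 belong, were mostly not called. Of 22 other semaphorins, neuropilins and plexins tested, 0 were called higher and 2 lower in edgeR, with 5 higher and 4 lower at an unadjusted p under 0.05 and a median of 0.04. Nrp1, the partner receptor of Nrp2, stood at 39.4, 22.5 and 11.5 CPM against 64.8, 48.3 and 47.6 CPM (-1.30, SE 0.19, adjusted p = 8.36e-05), and at -0.95 without replicate 3. Sema3e, a secreted semaphorin, stood at 10.6 ± 7.17 CPM against 34.1 ± 11.6 CPM (-1.88). Sema6d was higher at 1248 ± 69.7 CPM against 703 ± 51.4 CPM but short of the size for a call (0.78, adjusted p = 2.63e-08). Among 33 netrin, Slit, Robo, Eph and ephrin genes, 2 were called higher and 5 lower (median -0.14), beside 0.964% and 1.95% of all genes. Ntn1, the secreted cue netrin 1, stood at 12.3, 12.7 and 10.2 CPM against 2.55 ± 0.654 CPM (2.14), and Epha6, an Eph receptor, at 1836, 1639 and 1797 CPM against 723 ± 139.8 CPM (1.25). Of the netrin receptors of the UNC5 family, Unc5c and Unc5d were called lower and Unc5a and Unc5b were not called. Unc5c stood at 126 ± 31.1 CPM against 299.5 ± 30.9 CPM (-1.30) and Unc5d stood at 194 ± 28.2 CPM against 453 ± 88.2 CPM (-1.26). Dscaml1 (-1.58), Ntng2 (-1.46) and Epha7 (-1.14) were the other genes of the list called lower.

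Adhesion genes also split. Of 14 classical cadherins tested, Cdh7 (319, 278 and 347 CPM against 97.4 ± 12.6 CPM, 1.64) and Cdh13 (1431 ± 53.7 CPM against 563 ± 20.0 CPM, 1.30) were called higher and Cdh12 (209 ± 41.5 CPM against 550.1 ± 44.5 CPM, -1.45) lower. Groups did not overlap for any of the 3, and the list's median was 0.13. Of 48 synaptic organisers and adhesion genes, 1 was called higher and 2 lower, beside 0.964% and 1.95% of all genes. At an unadjusted p under 0.05, 14 were higher and 11 lower. Lrrtm4, a postsynaptic organiser of glutamate synapses, stood at 7929, 5374 and 7154 CPM against 2686 ± 429 CPM (1.29). Nrxn3, a presynaptic neurexin, stood at 1337 ± 157 CPM against 2980.2 ± 375 CPM (-1.20). Flrt2 stood at 52.0 ± 18.6 CPM against 101 ± 3.74 CPM (-1.10) and fell short of a call without replicate 3 (-0.79). Among 11 receptors for growth inhibitors of myelin and proteoglycans, Ptprd alone was called, lower at 1363 ± 219 CPM against 4152 ± 229 CPM (-1.66).

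Kcnd2 and Kcnd3, which encode subunits of Kv4 channels that carry a fast, transient A-type potassium current in many neurons, were called higher, and Kcnd1, with 9 UMIs in members, was not called. Kcnd3 stood at 356, 299.8 and 347 CPM in members against 126, 115 and 110.4 CPM (1.47, SE 0.08, adjusted p = 6.93e-11). Kcnd2 stood at 4769, 3398 and 4554 CPM against 1832, 1469 and 1836 CPM (1.25, SE 0.07, adjusted p = 5.22e-11). Neither gene's groups overlapped, and they were the only genes called higher of 42 potassium channels and partners. The 3 called lower were all partner subunits: Kcnip3 (11.5 ± 3.03 CPM against 39.5 ± 11.9 CPM, -1.81) and Dpp10 (1183 ± 232 CPM against 2539 ± 291 CPM, -1.16), which associate with Kv4 channels, and Kcnab1 (70.8 ± 6.00 CPM against 166 ± 16.7 CPM, -1.28), which associates with Kv1 channels. The list's median was -0.18. Of 21 calcium and HCN channel genes, only Cacng5 was called, higher at 17.8 ± 1.89 CPM against 4.34 ± 0.662 CPM (2.03). It belongs to the family of gamma subunits that includes regulators of AMPA receptors.

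Among 23 glutamate receptor genes, 2 were called higher and 2 lower (median -0.11). Grik1, a kainate receptor subunit, stood at 1204, 1094 and 1099 CPM against 403, 358 and 452 CPM (1.44, SE 0.07, adjusted p = 2.58e-11). Grik3, another kainate subunit, stood at 109 ± 6.42 CPM against 51.4 ± 11.2 CPM (1.07) and was at 0.97 without replicate 2. The NMDA receptor subunit Grin2a was lower at 163 ± 5.52 CPM against 354 ± 56.3 CPM (-1.14), and at -0.98 without replicate 2. Grin2c rests on 4 UMIs in members (1.25 CPM against 6.15 CPM, -2.46), and its call ended without replicate 2 (adjusted p = 0.104) or replicate 3 (0.0969). Without replicate 1 Grin2c stood at -3.24. Of 21 GABA and glycine receptor genes, only Gabrg1 was called, lower at 7.87 ± 2.96 CPM against 19.0 ± 4.55 CPM (-1.29).

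Of 21 tested receptors for monoamines and acetylcholine, 6 were called lower and 3 higher, with a median of -0.42, beside 1.95% of all genes called lower and 0.964% called higher. Serotonin receptors made up 4 of the 6, since Htr2c (232 ± 10.7 CPM against 566 ± 100.1 CPM, -1.33), Htr1d (4.80 ± 1.79 CPM against 15.2 ± 2.31 CPM, -1.74) and Htr1f (93.4 ± 18.0 CPM against 212 ± 29.7 CPM, -1.22) were lower along with Htr7. The others were Chrm3, a muscarinic receptor that acts through Gq, at 113, 85.2 and 59.4 CPM against 335, 279 and 252 CPM (-1.84, SE 0.10), and the adrenergic receptor Adra1b (-1.10). In the opposite direction went Htr1b, a serotonin receptor of axon terminals, at 17.7 ± 2.66 CPM against 7.78 ± 0.680 CPM (1.13), and it was at 0.96 without replicate 2 (adjusted p = 0.0658). Drd2, the dopamine D2 receptor, was even across libraries at 37.0, 35.3 and 37.0 CPM against 14.5 ± 0.693 CPM (1.29). Chrnb3, a nicotinic receptor subunit, stood at 3.70, 13.7 and 10.2 CPM against 0.672 ± 0.164 CPM (3.79, 33 UMIs in members). The list was chosen with earlier results known, and these counts are a description.

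Peptides and their receptors were lower in 6 of 31 tested genes and higher in 1 (median -0.30), beside 1.95% and 0.964% of all genes. Npy1r, a receptor for neuropeptide Y, was the higher one at 11.6 ± 2.18 CPM against 3.72 ± 0.437 CPM (1.61), with an adjusted p of 0.0668 without replicate 3. Calcr, the calcitonin receptor, had 5 UMIs in members, or 1.38 ± 0.484 CPM against 17.8 ± 4.17 CPM (-3.67, SE 0.40, adjusted p = 1.73e-06). Oprm1, the mu opioid receptor, stood at 9.70 ± 2.34 CPM against 32.0 ± 3.29 CPM (-1.83). Tacr1, the substance P receptor, stood at 2.75 ± 0.968 CPM against 9.78 ± 1.76 CPM (-1.82), and Crh, the stress peptide, at 2.00 ± 0.884 CPM against 10.7 ± 5.12 CPM (-2.53). Penk and Mc4r rest on 5 and 2 UMIs in members. The Penk call ended without replicate 1 (adjusted p = 0.0502) or replicate 3 (0.388). Without replicate 2 the log2 fold change of Penk was -2.60. Mc4r was 6.104-fold lower with a counting interval of 1.65 to 51.0, and its call ended without any 1 of replicates 1, 2 and 3 (adjusted p = 0.141, 0.0966 and 0.153).

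Of 12 tested genes of transmitter synthesis and transport, 0 were called higher and 3 lower in edgeR, with 1 higher and 7 lower at an unadjusted p under 0.05 and a median of -1.07. The noradrenaline transporter Slc6a2 had 0 UMIs in members and 160 in the other hindbrain nuclei. It was at least 5.43-fold lower against a floor of 3 UMIs over the members (adjusted p = 0.00175). Ddc, the enzyme that makes dopamine and serotonin from their precursors, stood at 1.67 ± 1.45 CPM against 10.4 ± 1.05 CPM (-2.64). Gad2, an enzyme of GABA synthesis, stood at 1.23, 0 and 6.38 CPM against 11.7, 4.57 and 10.5 CPM (-1.59), with overlapping groups. Of the 10 Gad2 UMIs of replicate 3 of the members, 6 came from 1 nucleus, without which that library stood at 2.60 CPM, below all libraries of the other hindbrain nuclei. Its call ended without replicate 1 (adjusted p = 0.126) or replicate 2 (0.0753), and its value was -3.83 without replicate 3. Beside these values, the noradrenergic list summed to 12.9 ± 6.38 CPM in the other hindbrain nuclei against 2.58 ± 2.24 CPM in members, and the GABA and glycine list to 18.3 ± 8.93 CPM against 5.37 ± 4.63 CPM. The part that inhibitory and monoaminergic nuclei among the other hindbrain nuclei have in these calls was not tested.

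Growth factor receptors and ligands gave 2 genes higher (Gfra1 and Igf1) and 2 lower (Erbb4 and Met) of 26 tested, with a median of 0.00. Igf1, insulin-like growth factor 1, stood at 13.6, 13.7 and 14.7 CPM against 4.02 ± 1.12 CPM (1.79). Met, the receptor for hepatocyte growth factor, stood at 6.55 ± 0.770 CPM against 21.1 ± 3.20 CPM (-1.71). Of 18 genes of neurofilaments and large projection neurons, only Prph, the intermediate filament peripherin, was called, higher at 26.2 ± 5.28 CPM against 9.72 ± 1.44 CPM (1.35).

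In 4 lists edgeR called 0 genes in either direction. In the list of the PAR polarity complex and partners, Pard3b itself set aside, 20 genes were tested, with 0 higher and 3 lower at an unadjusted p under 0.05 and a median of -0.04. Pard3 stood at 158, 162 and 175 CPM in members and at 169, 145 and 167 CPM in the other hindbrain nuclei (log2 fold change 0.00, SE 0.08). Cdc42, a small GTPase of the complex, stood at 175 ± 38.1 CPM against 163 ± 16.8 CPM (0.06). Of 14 sodium channel genes, 1 was higher and 2 were lower at an unadjusted p under 0.05. Nalcn, the sodium leak channel, differed by less than the size for a call (366 ± 25.0 CPM against 268 ± 24.0 CPM, 0.40, adjusted p = 0.000549). Of 27 Hox genes, which mark position along the hindbrain and cord, only 6 passed the filter on low counts, with 2 higher and 0 lower at an unadjusted p under 0.05 and a median of 0.66. Hoxc4 stood at 14.8 ± 2.13 CPM against 8.23 ± 0.974 CPM (0.77, adjusted p = 0.0904). Of 20 genes of growth and regeneration, 2 were higher and 3 lower at an unadjusted p under 0.05. Gap43, a protein of growth cones, stood at 199 ± 10.6 CPM against 178 ± 11.8 CPM (0.10, adjusted p = 0.582).

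The other hindbrain nuclei include some that the members' own limits on Ttc6, Chst9, Rreb1 and Chrm2 bar. Members were therefore also compared with the 2349 of them (776, 694 and 879) that pass those limits. Both comparisons share the members and most of the nuclei set against them, so they are not independent. Of 12123 genes tested, 136 were called higher (1.12%) and 252 lower (2.08%). Genes of the rule, of the label or overlapping Pard3b account for 7 of the former and 1 of the latter. The log2 fold changes were 3.70 for Arsj, 3.38 for Lypd6, 2.91 for Crp, 2.31 for Insyn2b, 2.14 for Gfra1 and 1.90 for Reln. Lower genes had values of -3.47 for Htr7, -3.003 for Tafa2, -2.96 for Erbb4 and -2.85 for Gpc5. Sox14 (1.75) and Lhx4 (1.03) were called in it.

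The nuclei that the rule separates by Chrm2 are 281 hindbrain nuclei with at least 600 CPM of this muscarinic receptor (127, 37 and 117). In the clustering described below, 52 of them (18.5%) lay in cluster 10, which held most members. The Chrm2 limit alone removed 31 barcodes at the Pard3b limit, and those with at least 200 CPM of Meis1 and Meis2 together stay among the 281. The Chrm2-high nuclei are therefore not a kind fully separate from the members. Their mean levels of 278 CPM for Sema5a, 99.9 CPM for Nrp2, 23.3 CPM for Lhx3 and 74.4 CPM for Pard3b lay above those of the other hindbrain nuclei. Lhfpl2 varied, at 12.9, 23.7 and 30.7 CPM by library against 19.3, 14.99 and 18.1 CPM in the other hindbrain nuclei. In the same fit, 91 genes were called higher in members (0.751%) and 182 lower (1.5%). Without replicate 3 the higher count was 56. Genes of the rule, of the label or overlapping Pard3b account for 6 of the former and 2 of the latter. Sox14 was among the genes with the highest values: members held 17.2, 29.4 and 30.01 CPM and Chrm2-high nuclei 2.75, 1.48 and 3.84 CPM (log2 fold change 2.98, SE 0.39, adjusted p = 6.71e-05). Lhx4 was not called (47.4 ± 9.27 CPM against 26.2 ± 6.26 CPM, 0.78, adjusted p = 0.0404). A UMI of Sox14 was found in 2.49% of Chrm2-high nuclei, and a UMI of any of the 4 V2a factors in 42.7% of them.

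Arsj (2.81), Lypd6 (2.10), Reln (1.34) and Insyn2b (1.10) were also called higher in members than in Chrm2-high nuclei. The comparison added Hlf, a PAR-domain bZIP factor (34.9 ± 4.78 CPM against 8.96 ± 2.51 CPM, 1.98), Btg1 (1.90), an antiproliferative gene, and Ston2 (1.79), a protein of endocytosis. Olfr655 (2.80), an olfactory receptor gene, and Rasef (2.71) met the call as well, but 52 of the 91 Olfr655 UMIs in members came from 1 nucleus. A transcription factor and a synaptic receptor were among the genes called lower. Tfap2b stood at 1.85 ± 2.66 CPM against 23.3 ± 13.2 CPM (-3.68). Il1rapl2, a synaptic adhesion receptor, stood at 8.62, 12.7 and 42.8 CPM against 261, 332 and 429.7 CPM (-3.89), and 48 of its 67 UMIs in replicate 3 of the members came from 1 nucleus, without which that library stood at 12.4 CPM. Calcr (-4.14), Fign (-4.03), Egflam (-3.53), Gpr149 (-3.40) and Prdm6 (-3.29) were lower too, and for Calcr the Chrm2-high libraries ranged from 6.43 to 45.9 CPM.

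Clustering of all passing nuclei, made without the genes of the rule, of the label and of the Pard3b locus, showed that the members are not 1 uniform set. Of 25 clusters, 14 held members. Cluster 10 held 205 of the 316, which is 67.9%, 66.7% and 61.7% of the members of the 3 libraries, and members made up 53.9% of its 380 nuclei. On average 4.48% ± 2.33 of the nuclei that pass the same limits without high Pard3b lay in cluster 10. Cluster 5 held 58 members among 499 nuclei, and the remaining 53 members were spread over 12 clusters. How the members divide depends on the resolution of the clustering, which was 1 here. At a coarser resolution of 0.5, a single cluster of 879 nuclei held 263 members. The genes named below took part in the clustering, so these levels are a description.

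Members in both clusters had Lhx3 at a like level (62.7 CPM in cluster 10 and 61.7 CPM in cluster 5), and Slc17a6 as well (124 and 134 CPM). They differed in genes that were called over all members. Insyn2b averaged 179.7 CPM in members of cluster 10 and 54.4 CPM in those of cluster 5. Col8a1 averaged 91.1 and 11.4 CPM, Lypd6 223 and 85.2 CPM, Gfra1 147 and 65.6 CPM, and Kcnd3 425 and 162 CPM in the same order. Grik1 went the other way at 1168 and 1680.1 CPM, and Reln was 906 and 1007 CPM. The 175 nuclei of cluster 10 that are not members had much of the same profile, with means of 205 CPM for Pard3b, 676 CPM for Sema5a, 157 CPM for Insyn2b and 93.1 CPM for Col8a1. Members outside both clusters had part of it. Lhfpl2 averaged 92.2 CPM in them (40.4 CPM in members of cluster 5), Kcnd3 211 CPM, Zfhx3 602 CPM, Tshz1 72.6 CPM and Greb1 26.2 CPM, each above its mean in the other hindbrain nuclei. Other genes were low in them. Their Sema5a averaged 169.5 CPM, Lhx3 12.2 CPM, Reln 97.9 CPM and Slc17a6 67.9 CPM, while Htr7 averaged 16.6 CPM and Tafa2 144 CPM. Members of cluster 10 held 1.05 CPM of Htr7 and 12.3 CPM of Tafa2. The levels given over all members therefore mix nuclei of cluster 10, of cluster 5 and of 12 small remainders.

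**Figure D5:**
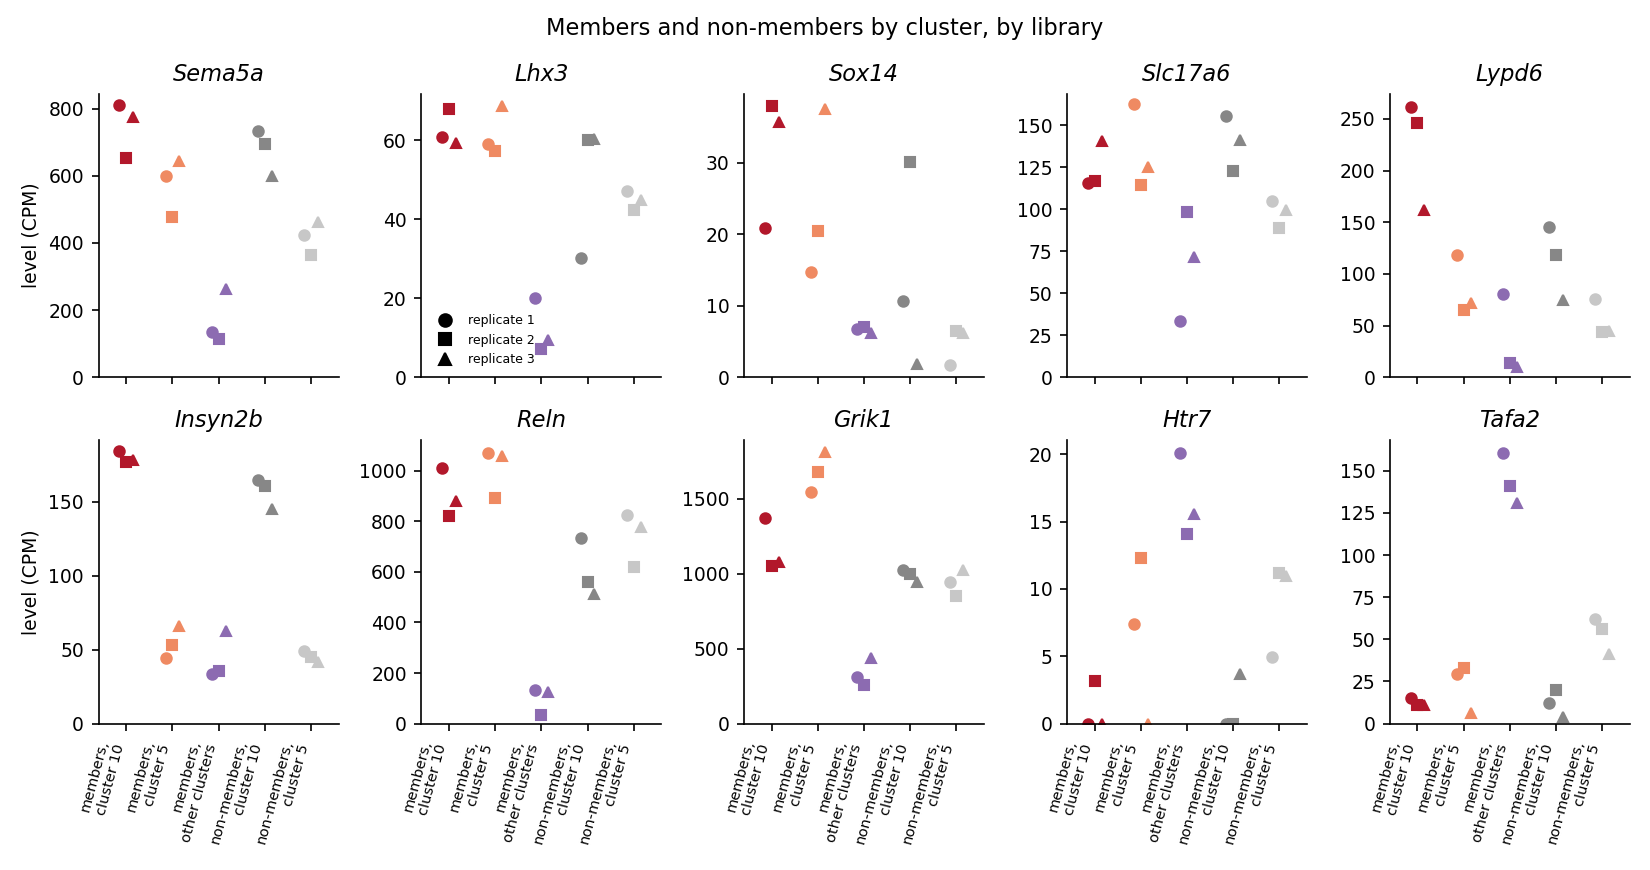
Level in CPM of 10 genes (vertical axes from 0) in members of cluster 10, of cluster 5 and of other clusters, and in the non-members of clusters 10 and 5, with 1 point per library. Members of clusters 10 and 5 share Lhx3, Slc17a6 and Reln but not Insyn2b, and members of other clusters hold less of Sema5a, Lhx3, Sox14, Slc17a6, Reln and Grik1 and more of Htr7 and Tafa2 on average.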

How the data were processed

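The authors deposited a matrix of raw UMI counts (genes by barcodes) for each library, from Cell Ranger and the mm10 build. The submitters' processing notes name version 7.0.1 and the file headers version 6.1.1. No source used here states if intron reads or strand entered the counts, or which rule picked the barcodes. Of 32285 genes in the files, 32158 (99.6%) matched the annotation used for positions and spans (GENCODE vM21).

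The members, gene lists and tests were chosen with earlier results of these data known. UMIs were summed per library and kind of nucleus and tested in edgeR 4.0.16 under R 4.3.3 (glmQLFit and glmQLFTest, a quasi-likelihood test), after TMM scaling and filterByExpr, with the library as a block. The replicate number pairs the sums, because members and comparison nuclei come from the same library. The members and the other hindbrain nuclei made 1 fit, and the members, the nuclei passing the same limits and the Chrm2-high nuclei made another. P-values were adjusted over all tested genes by the Benjamini-Hochberg method. On simulated data with known changes, the comparison with the other hindbrain nuclei recovered 80.8% of genes changed by 1.5 and 95.9% of genes changed by 3 on the log2 scale (14737 genes). The simulated sums had the same spread for every gene and no single nucleus with many UMIs. These rates therefore do not cover genes such as Rasef.

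Genes were named by a fixed rule: the genes of the rule and the label, the cell type markers, the 14 called genes with the largest positive and the 12 with the largest negative log2 fold change (3 of 3 libraries in 1 direction, at least 20 CPM in the higher group, no Gm or Rik symbol), up to 8 each way in the other comparisons, and up to 4 called genes per list, or its 3 most abundant. Results on some genes are not reported here, and the lists and shares leave them out. Other called members of the lists were named after their values were seen. SE is the size of the log2 fold change over the square root of F. Doublets came from Scrublet (Scanpy 1.11.5, expected rate 6%), clusters from Leiden at resolution 1 (leidenalg 0.10.2) on 2000 variable genes, 30 principal components and 20 neighbours. Exact intervals are Clopper-Pearson at 95%. Alternatives were DESeq2 1.42.0, no filter on low counts, no replicate block, each library left out, doublets removed, deeper nuclei, and other limits.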

Additional observations from a re-analysis of the deposited data

How the results depend on the processing

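No named gene changed direction under any alternative. The 104 named genes were each recomputed under every alternative. Counted per gene and alternative, the result was the same in 987 cases and a call ended in 52. Against the other hindbrain nuclei, DESeq2 called 94 genes higher and 181 lower, and a fit with no replicate block called 87 higher and 160 lower. The block also bears on the comparison with Chrm2-high nuclei, where 39 genes were higher without it. Testing every gene with a UMI, unfiltered, gave 201 genes higher than in Chrm2-high nuclei and 395 lower than in nuclei that pass the same limits. Leaving out 1 library at a time gave 141 to 193 genes higher and 268 to 352 lower against the other hindbrain nuclei, 106 to 123 and 179 to 247 against nuclei that pass the same limits, and 56 to 83 and 125 to 179 against Chrm2-high nuclei. The cause of these differences was not tested. A Pard3b limit of 400 CPM, which takes fewer nuclei by construction, left a member share of 2.17%, and clustering at resolution 0.5, which makes fewer clusters, put 83.8% of members in 1 cluster, with 20.3% of the nuclei that pass the same limits, and members were 29.9% of it. With barcodes of 500 genes or more, the share of members in replicate 2 was 0.976% (69 of 7071). The number of calls lost was 14 without the block, 11 with DESeq2, and 4, 9 and 7 without replicates 1, 2 and 3. Genes at a few UMIs in members are limited by depth.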

Other observations

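Hcrt, the orexin precursor of lateral hypothalamic neurons, had like means in the 3 kinds of nuclei given here. They were 83.0 CPM in members, 77.9 CPM in the other hindbrain nuclei and 75.7 CPM in cortical nuclei. Libraries differed more, at 101, 117 and 31.3 CPM in members and 72.1, 123 and 38.2 CPM in the other hindbrain nuclei. Cortical nuclei stood at 83.6, 109 and 34.7 CPM.

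The non-members of cluster 5 (441 nuclei) averaged 31.5 CPM of Pard3b, 418 CPM of Sema5a, 44.8 CPM of Lhx3 and 741 CPM of Reln. Lhfpl2 averaged 16.6 CPM in them against 40.4 CPM in the members of that cluster, and Nrp2 85.9 against 186 CPM. Sox14 averaged 4.78 CPM in them against 24.2 CPM in the members of that cluster, and Arsj 5.79 against 34.5 CPM. No test was run on these values, because the clusters were made with Reln, Sox14 and Arsj.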
